A study of Mus musculus with 17 samples.

Results

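The genes described here were grouped as regulators of the foot process cytoskeleton and its signalling that are mutated or lost in podocyte disease. The 9 members are Synpo, Inf2, Myo1e, Arhgdia, Arhgap24, Trpc6, Plce1, Dnm1 and Apol9b. The description does not hold for each of them. Apol9b belongs to the apolipoprotein L family, and the disease link given below is that of the human member APOL1. For Dnm1 no mutation or loss is given here. The 9 genes were chosen by name, for what is known of them in disease, and with earlier results of these data known. All 9 are among the 56748 genes of the table, and 7 of them are among the 15196 genes with enough counts to be tested. Trpc6 and Plce1 are not.

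All libraries come from 1 cell line, E11, a line of mouse podocytes. The cells grew on the silicone polymer polydimethylsiloxane with 1 of 3 surfaces. NT had no topography (5 libraries) and is the control without relief. RT had round, non-fractal relief (6 libraries) and is the control with topography. HF had a high fractal topography drawn from tracings of healthy glomerular tissue sections (6 libraries). The title of the series names podocyte maturation in culture as its subject. Neither the age of the cultures nor what separates one replicate from another is given in the labels, so p-values reflect how far these libraries spread, and that spread may be technical.

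Podocytes are the epithelial cells that wrap the glomerular capillaries with interdigitating foot processes. Each foot process holds a contractile actin bundle, and its shape depends on the balance of small GTPases such as Rac and Cdc42. Calcium entry and phospholipase C signalling act on the same bundle, and injury to any of these parts flattens the foot processes and lets protein pass into the urine.

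Libraries held 14.9 to 24.1 M counts. The labelled cell type was checked against 15 podocyte markers, of which 12 passed the filter on low counts, and their summed level was 1744 to 2025 CPM in NT, 1974 to 2135 CPM in RT and 1923 to 2102 CPM in HF. CPM are counts divided by the scaled library total in M. The transcription factor gene Tcf21 had 0 counts in all 17 libraries and Ptpro had 1 count in all. Tubule markers, 6 of 12 of them past the filter, summed to 1425 to 1783 CPM in NT, 1525 to 1717 in RT and 1466 to 1816 in HF, with Slc34a1, Aqp2 and Epcam at 0 counts, and Cdh16, a cadherin of tubule epithelium, stood at 976 CPM. Mesangial and smooth muscle markers, 5 of 10 of them past the filter, summed to 684 to 781 CPM in NT, 786 to 864 CPM in RT and 814 to 890 CPM in HF. Most of that sum was Pdgfrb, with means of 478, 457 and 478 CPM in NT, RT and HF, and Acta2, with 261, 363 and 364 CPM. Immune markers, 2 of 8 past the filter, summed to 38.2 to 43.1 CPM in NT, 47.0 to 59.7 in RT and 41.2 to 55.5 in HF, with Adgre1, Cd3e and Itgam at 0 counts. Nearly all of that sum was Csf1r, with means of 39.4, 50.8 and 45.8 CPM in NT, RT and HF. Endothelial markers, 2 of 8 past the filter, summed to 72.5 to 82.8 CPM, with Kdr at 0 counts. Nearly all of that sum was Ehd3 at a mean of 76.3 CPM, while Pecam1 stood at 0.12 CPM and Cdh5 at 0.00693 CPM. Parietal epithelial markers, 4 of 7 past the filter, summed to 1470 to 1710 CPM, with Krt18 at 0 counts. The part of these markers in the results below was not tested, and in bulk RNA fewer cells of a type and less RNA per cell cannot be told apart.

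None of the 7 tested genes passed the threshold in any comparison. The count was 0 of 7 for HF versus NT, where 2.33% of all tested genes passed (adjusted p under 0.05 by edgeR's quasi-likelihood test). It was 0 of 7 for HF versus RT, where 0.211% passed, and 0 of 7 for RT versus NT, where 3.97% passed. At those background rates a count of 0 among 7 genes is near the background. At an unadjusted p under 0.05 the count was 1 of 7 for HF versus NT (Synpo), against 14.2% of all tested genes. It was 0 of 7 for HF versus RT, against 8%, and 2 of 7 for RT versus NT (Myo1e and Arhgap24), against 17.1%. By DESeq2 the counts of calls were 0, 0 and 1, the last being Arhgap24. Over all genes DESeq2 called 556, 89 and 803 genes, beside 354, 32 and 603 by edgeR.

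No tested gene of the 9 had groups that failed to overlap. Across all tested genes, groups did not overlap in 2.18% for HF versus NT, 0.967% for HF versus RT and 3.40% for RT versus NT. The median absolute log2 fold change of the 7 genes was 0.06, 0.06 and 0.05 in these 3 comparisons, beside 0.07, 0.06 and 0.07 over all tested genes. The comparisons share libraries (NT in the first and last, HF in the first 2, RT in the last 2) and are not independent.

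**Figure D1:**
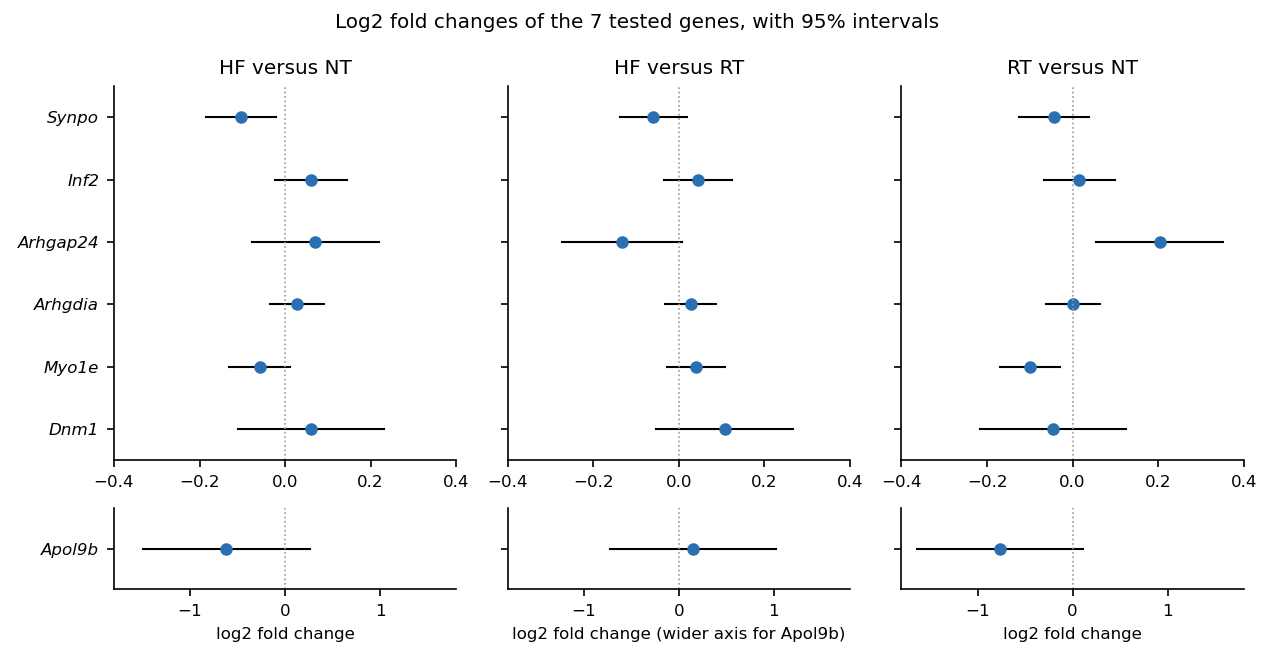
Log2 fold changes (x axis, first group minus second) of the 7 tested genes in HF versus NT, HF versus RT and RT versus NT, from the edgeR fit. Points are estimates and lines are 95% intervals, and Apol9b has a wider axis of its own. 3 intervals lie off 0: Synpo in HF versus NT (-0.19 to -0.02), and Myo1e (-0.17 to -0.03) and Arhgap24 (0.05 to 0.35) in RT versus NT.

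Set per length, the 9 genes spanned the range from among the most abundant transcripts to a few reads. The level used for this is CPM per kilobase of exon, averaged over 17 libraries. Arhgdia stood highest, at 187 ± 4.72 (SD, n = 17), above 99.2% of tested genes. Inf2 followed at 73.7 ± 3.96, and Synpo at 28.6 ± 1.66. Each of these lay above the next in 17 of 17 libraries.

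Myo1e at 23.4 ± 1.00 and Arhgap24 at 22.1 ± 2.18 did not differ beyond their spread, since Myo1e was above in 11 of 17 libraries (SD, n = 17). Their order turned when the length of the longest transcript was used, with Arhgap24 at 45.4 and Myo1e at 28.4. Dnm1 stood at 3.60 ± 0.381 and Apol9b at 1.32 ± 0.863, and Dnm1 was above in 16 of 17 libraries. Trpc6 at 0.00930 and Plce1 at 0.00460 rest on a handful of counts and have no order between them, with Trpc6 above in 8 of 17 libraries.

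**Figure D2:**
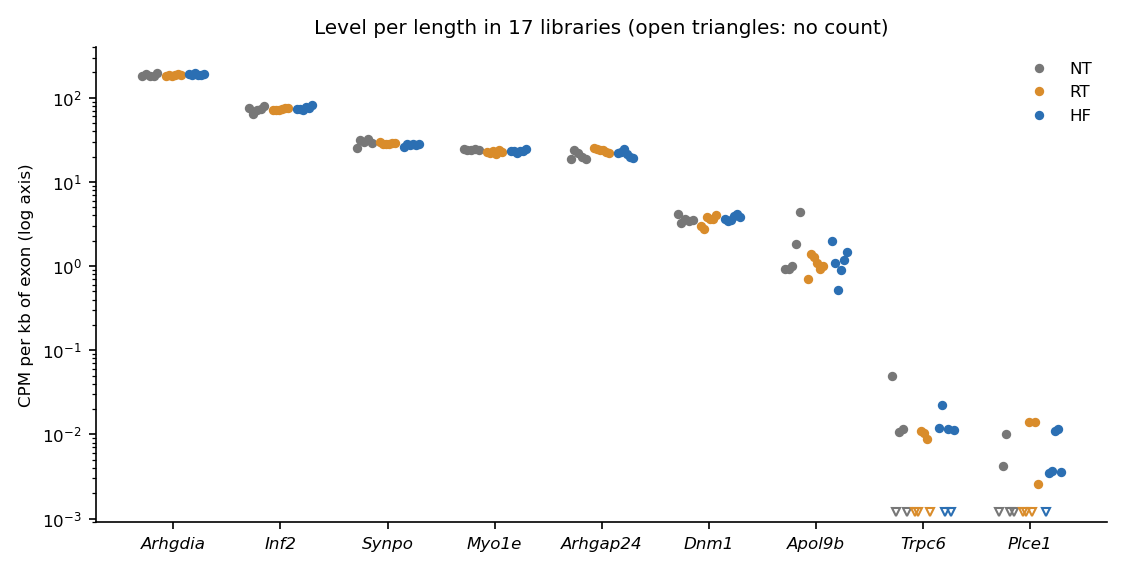
Level per length (CPM per kilobase of exon, log axis) of the 9 genes, with 1 point for each of the 17 libraries coloured by surface and open triangles for libraries with no count. Arhgdia, Inf2 and Synpo separate from each other in every library, Myo1e and Arhgap24 interleave, and Trpc6 and Plce1 lie far below the rest.

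The actin-binding members come first. Synpo (ENSMUSG00000043079) encodes synaptopodin, an actin-associated protein of foot processes that stabilises stress fibres and is lost in proteinuric disease. In NT its level was 242.6, 295.9, 285.6, 308.0 and 279.4 CPM in replicates 1 to 5. In RT it ran from 267.2 to 283.0 CPM, with a median of 273.3. In HF it ran from 247.7 to 269.9 CPM, with a median of 264.7. NT held both the lowest and the highest library, 4 of 6 HF libraries lay below the lowest RT library, and the groups overlapped.

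The mean of Synpo was 282 ± 24.7 CPM in NT (SD, n = 5), 274 ± 5.87 in RT and 263 ± 8.18 in HF (SD, n = 6 each). The log2 fold change was -0.10 ± 0.04 (SE, 95% interval -0.19 to -0.02, adjusted p = 0.20) for HF versus NT and -0.06 ± 0.04 (adjusted p = 0.76) for HF versus RT. It was -0.04 ± 0.04 (adjusted p = 0.663) for RT versus NT. The first of these turned on 1 library. Without NT 1, where Synpo was lowest, it was -0.15 and passed (adjusted p = 0.00767), and over leaving out each library in turn its adjusted p ran from 0.00767 to 0.483.

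Within its own small family Synpo was nearly the sole transcript, with 98.7% ± 0.197 (SD, n = 17) of the summed level per length of Synpo, Synpo2 and Synpo2l. Of 13 listed partners and turnover factors of synaptopodin, 12 were tested. In HF versus NT 2 rose and 0 fell, where 1.5% of all tested genes rose and 0.829% fell. These were Actn4, the actin crosslinker alpha-actinin 4, with a log2 difference of 0.13 ± 0.03 (SE, adjusted p = 0.0285), and Enah, the actin filament elongator Mena, with 0.14 ± 0.04 (SE, adjusted p = 0.029). In RT versus NT 3 rose and 0 fell, where 2.53% of all tested genes rose and 1.44% fell. These were Enah by 0.15 ± 0.04 (adjusted p = 0.00927), Ctsl by 0.16 ± 0.04 (adjusted p = 0.0138) and Vasp by 0.15 ± 0.05 (adjusted p = 0.0494). Ctsl encodes cathepsin L, the protease that cleaves synaptopodin, and Vasp encodes a relative of Mena.

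In HF versus RT none of the 12 passed, and 2 had an unadjusted p under 0.05, beside 0.211% and 8% of all tested genes. The median log2 fold change of the 12 was 0.06, -0.01 and 0.09 in HF versus NT, HF versus RT and RT versus NT. Actn4 stood at 615 ± 13.8 CPM in NT (SD, n = 5) and 671 ± 24.7 in HF (SD, n = 6). Its call was lost without NT 3, NT 4, HF 1, HF 3 or HF 4 (with adjusted p up to 0.0928). The call of Enah in HF versus NT was lost without NT 2, HF 4 or HF 6 (with adjusted p up to 0.104), and that of Vasp in 11 of 17 omissions of a library (NT 2, NT 3, NT 4, RT 1, RT 2, RT 4, RT 5, RT 6, HF 1, HF 4 and HF 5, with adjusted p up to 0.131). The calls of Enah and Ctsl in RT versus NT held in all 17.

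Inf2 (ENSMUSG00000037679) encodes a formin that both builds and severs actin filaments, and is a frequent site of mutations in inherited focal segmental glomerulosclerosis. Its level in NT was 368.1, 309.2, 343.6, 357.7 and 383.2 CPM in replicates 1 to 5. In RT it ran from 343.7 to 370.5 CPM (median 354.3) and in HF from 350.8 to 397.8 CPM (median 362.8). NT 2 was the lowest library and HF 6 the highest, and the groups overlapped. Group means were 352 ± 28.2, 356 ± 10.5 and 368 ± 17.3 CPM in NT, RT and HF (SD, n = 5, 6 and 6). The log2 fold change was 0.06 ± 0.04 (SE, 95% interval -0.02 to 0.15, adjusted p = 0.548) for HF versus NT, 0.05 ± 0.04 (adjusted p = 0.851) for HF versus RT and 0.02 ± 0.04 (adjusted p = 0.90) for RT versus NT.

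Inf2 was the leading formin of these cells per length, with 31.9% ± 1.25 (SD, n = 17) of the summed level of 15 formins. Fmnl3, a formin of filopodia, came next at 51.6 CPM per kilobase. Of all tested genes 2.33% passed in HF versus NT, 0.211% in HF versus RT and 3.97% in RT versus NT. Of the 12 other formins tested, 0 passed in each of the 3 comparisons. At an unadjusted p under 0.05 there were 0, 1 and 0 formins, beside 14.2%, 8% and 17.1% of all tested genes. The log2 fold changes of the 12 formins for HF versus NT lay between -0.07 and 0.33.

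Myo1e (ENSMUSG00000032220) encodes a class I myosin that links the plasma membrane to actin and is mutated in childhood nephrotic syndrome. Its level in NT was 140.9, 136.8, 135.9, 141.6 and 137.6 CPM in replicates 1 to 5. In RT it ran from 122.0 to 137.6 CPM (median 129.3) and in HF from 126.4 to 140.2 CPM (median 132.4). The NT libraries lay close together at the upper end: 5 of 6 RT libraries and 5 of 6 HF libraries lay below the lowest of them, and RT 5 and HF 6 lay within their range.

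For Myo1e the log2 fold change for RT versus NT was -0.10 ± 0.03 (SE, 95% interval -0.17 to -0.03, unadjusted p = 0.00714, adjusted p = 0.11). For HF versus NT it was -0.06 ± 0.03 (adjusted p = 0.463), and for HF versus RT 0.04 ± 0.03 (adjusted p = 0.841). No omission of a single library brought the RT versus NT value past the threshold, the lowest adjusted p being 0.0507. Myo1e held 25.1% ± 1.10 (SD, n = 17) of the summed level per length of 8 class I myosins, second to Myo1c at 44.3 CPM per kilobase. Its share was 26.0% in NT, 24.5% in RT and 24.9% in HF. Of the 5 other class I myosins tested, 0 passed in each comparison and 0 had an unadjusted p under 0.05. In the order HF versus NT, HF versus RT, RT versus NT, 2.33%, 0.211% and 3.97% of all tested genes passed. At an unadjusted p under 0.05 the shares were 14.2%, 8% and 17.1%. Counts of 0 among 5 genes are near these shares.

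**Figure D3:**
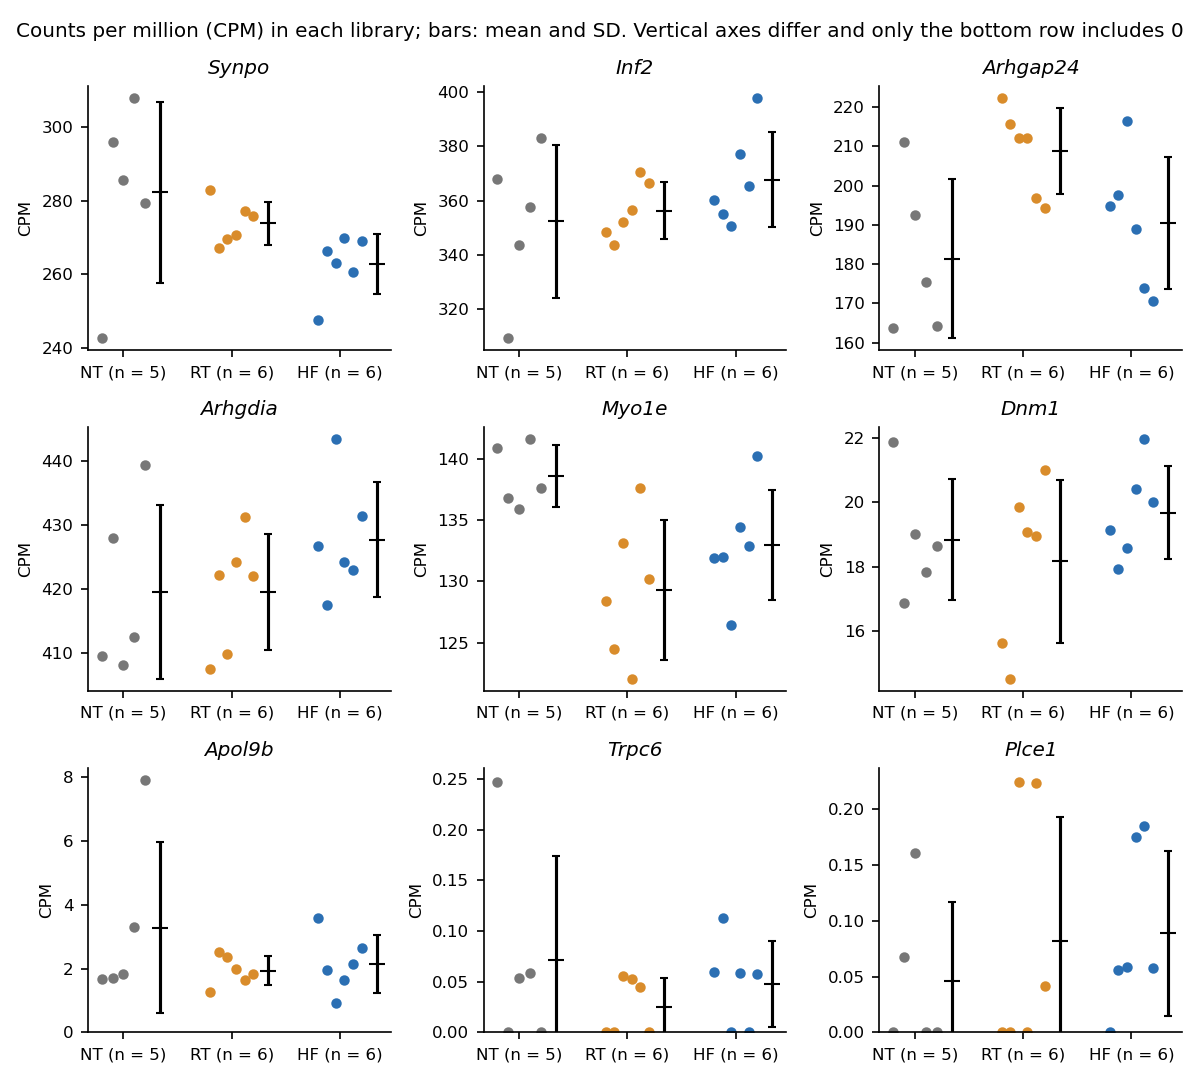
Level (CPM, y axis, a separate scale for each gene, starting at 0 in the bottom row only) of the 9 genes in each library by surface, NT, RT and HF. Points are libraries in the order of their replicate number, and bars are the group mean and SD. Groups overlap for all 9 genes. Myo1e shows 5 of 6 RT and 5 of 6 HF libraries below the NT libraries, and Apol9b shows 1 NT library, at 7.93 CPM, above all others.

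The regulators of small GTPases follow. Arhgdia (ENSMUSG00000025132) encodes a GDP-dissociation inhibitor, which keeps Rac, Cdc42 and related GTPases inactive in the cytosol and is mutated in congenital nephrotic syndrome. It was the steadiest of the 9 genes, with a coefficient of variation of 2.52% over 17 libraries. Its level in NT was 409.5, 427.9, 408.0, 412.5 and 439.3 CPM in replicates 1 to 5. In RT it ran from 407.5 to 431.2 CPM (median 422.0) and in HF from 417.4 to 443.4 CPM (median 425.5). The groups overlapped over most of their range.

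The log2 fold change of Arhgdia was 0.03 ± 0.03 (SE, 95% interval -0.03 to 0.09, adjusted p = 0.753) for HF versus NT and 0.03 ± 0.03 (adjusted p = 0.897) for HF versus RT. For RT versus NT it was 0.00026 ± 0.03, with a 95% interval of -0.06 to 0.06 (adjusted p = 0.998). Arhgdia made up 99.5% ± 0.181 (SD, n = 17) of the summed level per length of the 3 genes Arhgdia, Arhgdib and Arhgdig. Arhgdib, known mainly from blood cells, came next at 0.652 CPM per kilobase.

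Arhgap24 (ENSMUSG00000057315) encodes a GTPase-activating protein that switches Rac off, rises during podocyte differentiation in culture and is mutated in familial glomerulosclerosis. Its level in NT was 163.8, 211.2, 192.4, 175.3 and 164.2 CPM in replicates 1 to 5. In RT it was 222.3, 215.8, 212.0, 212.0, 196.9 and 194.3 CPM in replicates 1 to 6. In HF it was 194.8, 197.6, 216.5, 189.0, 173.8 and 170.6 CPM. RT tended to the upper end, with 4 of 6 RT libraries above the highest NT library, but the lowest RT libraries overlapped with NT and HF. HF lay between, with 3 of 6 HF libraries below the lowest RT library.

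Group means of Arhgap24 were 181 ± 20.3 CPM in NT (SD, n = 5), 209 ± 10.97 in RT and 190.4 ± 16.9 in HF (SD, n = 6 each). For RT versus NT the log2 fold change was 0.20 ± 0.07 (SE, 95% interval 0.05 to 0.35), or 15.1% higher, with an unadjusted p of 0.0104 and an adjusted p of 0.134. It was the largest estimate among the 6 more abundant tested genes of the 9. Among the settings that do not use the replicate number, it passed without NT 2 (0.26, adjusted p = 0.0174), with DESeq2 (adjusted p = 0.0314) and with no filter on low counts (adjusted p = 0.0198). Over all genes these settings called 609, 803 and 822 genes in RT versus NT, beside 603 in the edgeR fit of all libraries. Over leaving out each library in turn the log2 fold change ran from 0.17 (without NT 5) to 0.26, and its adjusted p from 0.0174 to 0.256. For HF versus RT the log2 fold change was -0.13 ± 0.07 (95% interval -0.27 to 0.01, adjusted p = 0.661), and for HF versus NT 0.07 ± 0.07 (adjusted p = 0.727).

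Arhgap24 held 93.9% ± 0.854 (SD, n = 17) of the summed level per length of Arhgap22, Arhgap24 and Arhgap25. Of 21 other tested GTPase-activating and exchange factors of podocytes, 1 rose and 1 fell in HF versus NT. Over all tested genes 1.5% rose and 0.829% fell there. Srgap1, a partner of Slit and Robo signalling, rose by 0.22 on the log2 scale (adjusted p = 0.0164), a call lost without NT 2 or NT 3 (with adjusted p up to 0.0615). Arhgap28, another GTPase-activating protein, had a log2 fold change of -0.21 (adjusted p = 0.0113) for HF versus NT, a call that held whichever library was left out. In RT versus NT Arhgap28 was the 1 gene that fell, with -0.16 (adjusted p = 0.0418), where 1.44% of all tested genes fell. That call ended in 11 of 17 omissions of a library (each NT but NT 5, each RT, and HF 4, with adjusted p up to 0.128). None passed in HF versus RT, where 2 had an unadjusted p under 0.05, beside 0.211% and 8% of all tested genes. Without NT 5 the list had 1 gene up and 5 down in HF versus NT, and 0 up and 3 down in RT versus NT. The calls over all tested genes moved as well. In HF versus NT 333 were then up and 271 down, beside 228 and 126 with NT 5. In RT versus NT 447 were then up and 359 down, beside 384 and 219.

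The calcium and phospholipase members were close to undetected. Trpc6 (ENSMUSG00000031997) encodes a calcium channel of the slit diaphragm whose overactive forms cause glomerulosclerosis. It had 14 counts in all 17 libraries together, 6 in NT, 3 in RT and 5 in HF, with 7 libraries at 0 and at most 4 counts in a library (NT 1). Pooled, that is 0.0465 CPM, with an exact Poisson 95% interval of 0.0254 to 0.0780 that covers counting error only. By group the pooled level was 0.0715 CPM in NT (0.0263 to 0.156), 0.0261 in RT (0.00538 to 0.0762) and 0.0488 in HF (0.0159 to 0.114). These intervals overlap, and no difference was detectable at this depth.

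Plce1 (ENSMUSG00000024998) encodes phospholipase C epsilon, which turns receptor and Ras signals into calcium release and is mutated in diffuse mesangial sclerosis. It had 23 counts in all, 4 in NT, 10 in RT and 9 in HF, with 7 libraries at 0 and at most 5 counts in a library. Pooled, that is 0.0763 CPM (exact Poisson 95% interval 0.0484 to 0.115). For scale, 3 counts, the number that a count of 0 allows, correspond to 0.125 to 0.203 CPM in these libraries.

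The relatives of both genes were present. Trpc1, a channel subunit of the same family, led the 7 Trpc genes at 1.81 CPM per kilobase, and Trpc6 held 0.512% of their summed level. Among 13 phospholipases C, Plcg1 at 17.5 and Plcb3 at 17.2 CPM per kilobase led, the first coupled to receptor tyrosine kinases and the second to G proteins, and Plce1 ranked in place 10. Of 15 other tested genes of TRP channels and calcineurin-NFAT signalling, 0 passed in HF versus NT and in HF versus RT. Of all tested genes 2.33% and 0.211% passed. At an unadjusted p under 0.05 the list had 3 and 2, beside 14.2% and 8% of all tested genes. In RT versus NT 1 rose, where 2.53% of all tested genes did. This was the mechanically and osmotically gated channel gene Trpv4, with a log2 fold change of 0.41 (adjusted p = 0.0314). It was at 59.1 ± 4.20 CPM in NT (SD, n = 5), 78.5 ± 8.27 in RT and 61.4 ± 9.59 in HF (SD, n = 6 each). The call was lost without NT 1, NT 3, NT 4, NT 5, RT 1, RT 2 or RT 3 (with adjusted p up to 0.0774). In the order HF versus NT, HF versus RT, RT versus NT, 2.33%, 0.211% and 3.97% of all tested genes passed. Of 20 tested phospholipases C and partners, 0 passed in each comparison. At an unadjusted p under 0.05 there were 3, 1 and 1 in that order. Of all tested genes 14.2%, 8% and 17.1% had such a p. Without NT 5, 1 gene of each list fell in HF versus NT and 1 of each in RT versus NT, where no TRP or calcineurin gene then rose. Over all tested genes 271 then fell in HF versus NT and 359 in RT versus NT, beside 126 and 219 with NT 5.

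Dnm1 (ENSMUSG00000026825) encodes dynamin 1, a GTPase that pinches off endocytic vesicles and can bundle actin in foot processes. Its level in NT was 21.87, 16.86, 19.00, 17.82 and 18.64 CPM in replicates 1 to 5. In RT it ran from 14.49 to 21 CPM (median 19.01) and in HF from 17.92 to 21.97 CPM (median 19.57). The 2 lowest libraries of all were RT 1 and RT 2, and the groups overlapped. The log2 fold change was 0.06 ± 0.08 (SE, 95% interval -0.11 to 0.23, adjusted p = 0.814) for HF versus NT, 0.11 ± 0.08 (adjusted p = 0.804) for HF versus RT and -0.05 ± 0.08 (adjusted p = 0.854) for RT versus NT.

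Dnm2, the widely expressed dynamin, led its family at 30.0 CPM per kilobase, and Dnm1 held 10.3% ± 0.983 (SD, n = 17) of the summed level of the 3 dynamins. Over all tested genes 2.33% passed in HF versus NT and 3.97% in RT versus NT. Of 20 other dynamin and endocytic genes tested, Sh3gl1 alone passed. It encodes endophilin A2, which bends membranes and recruits dynamin. It was at 106 ± 3.71 CPM in NT (SD, n = 5), 119 ± 1.90 in RT and 119 ± 3.49 in HF (SD, n = 6 each), and NT did not overlap with either. Over all tested genes, groups did not overlap in 2.18% for HF versus NT and 3.40% for RT versus NT. The log2 fold change of Sh3gl1 was 0.17 for HF versus NT (adjusted p = 0.00303) and 0.17 for RT versus NT (adjusted p = 0.0019). Both comparisons share the NT libraries, and both calls held whichever library was left out. In HF versus RT none of the 20 passed, and 1 had an unadjusted p under 0.05, beside 0.211% and 8% of all tested genes.

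Apol9b (ENSMUSG00000068246) belongs to the apolipoprotein L family, whose human member APOL1 is linked to glomerular disease and whose members respond to interferon. Its level in NT was 1.67, 1.69, 1.83, 3.29 and 7.93 CPM in replicates 1 to 5, which are 27, 25, 34, 56 and 137 counts. In RT it ran from 1.28 to 2.54 CPM (median 1.91) and in HF from 0.933 to 3.58 CPM (median 2.07). NT 5 stood above every other library, and the other 4 NT libraries lay within the range of HF.

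The log2 fold change of Apol9b was -0.62 ± 0.41 (SE, 95% interval -1.49 to 0.26, adjusted p = 0.557) for HF versus NT and -0.77 ± 0.41 (95% interval -1.64 to 0.11, adjusted p = 0.375) for RT versus NT. For HF versus RT it was 0.15 ± 0.41 (adjusted p = 0.977). Without NT 5 the first became 0.02 (adjusted p = 0.991) and the second -0.14 (adjusted p = 0.844). Of the 100-base windows of its longest transcript, 34.9% also occur in Apol9a, so counts of these 2 genes can be split between them. The other 8 genes shared no such window with any gene.

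NT 5 also held the highest level of 26 of 29 tested interferon-response genes, and their summed level was 1113 CPM there against 729 to 856 CPM in the other 16 libraries. The part of this in the values of Apol9b was not tested. The promoter of Apol9b is shown because the gene is of a family known to respond to interferon. A motif of 2 GAAA blocks separated by any 2 bases, the core of the interferon-stimulated response element, was searched on both strands of the RefSeq windows (build GRCm38.p6, 250 bases before to 50 after each start). It was found in 3.44% of 32851 windows. Windows were present for 7 of the 9 genes, all but Synpo and Arhgap24, and Apol9b alone of the 7 held the motif, as 2 overlapping matches on the minus strand. The 250 bases before its start site, chr15:77728822-77729071 (plus strand), are given 5′ to 3′ with the matches in capitals, whose last base lies 21 bases before the end of the stretch.
Apol9b: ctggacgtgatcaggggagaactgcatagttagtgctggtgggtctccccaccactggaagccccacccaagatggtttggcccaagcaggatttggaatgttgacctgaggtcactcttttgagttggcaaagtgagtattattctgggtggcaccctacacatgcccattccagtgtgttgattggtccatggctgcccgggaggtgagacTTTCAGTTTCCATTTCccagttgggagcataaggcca
The same window of Apol9a (minus strand of chromosome 15) was identical in 278 of 278 bases compared, at an offset of 22 bases, and holds the same 2 matches. A match is a description of these letters and not evidence of binding.

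Apol9a was at 4.63, 7.99, 8.05, 6.23 and 11.5 CPM in NT replicates 1 to 5, 5.03 ± 1.06 CPM in RT and 5.90 ± 0.520 CPM in HF (SD, n = 6 each). Of 4 other tested Apol genes, 0 passed in HF versus NT and HF versus RT, where 2.33% and 0.211% of all tested genes did. In RT versus NT 1 fell, where 1.44% of all tested genes fell. This was Apol9a, with a log2 fold change of -0.61 for RT versus NT (adjusted p = 0.0438). That call was lost without NT 5 (-0.42, adjusted p = 0.0945) and in 13 other omissions of a library (NT 2, NT 3, RT 1, RT 2, RT 3, RT 4, RT 6 and each HF, with adjusted p up to 0.109). Of the 29 interferon-response genes, 0 rose and 2 fell in HF versus NT, where 1.5% of all tested genes rose and 0.829% fell. In HF versus RT 0 passed, where 0.211% of all tested genes did. In RT versus NT 0 rose and 4 fell, where 2.53% and 1.44% of all tested genes did. At an unadjusted p under 0.05 the list had 19, 0 and 21 of 29 genes in these comparisons, beside 14.2%, 8% and 17.1% of all tested genes. The list's median log2 fold change was -0.29, 0.04 and -0.36. Both comparisons with NT include NT 5, which held the highest level of 26 of these 29 genes. The unadjusted counts and medians were not taken without NT 5, and its part in them was not tested.

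Among the interferon genes, Zbp1, a sensor of left-handed nucleic acid, had a log2 fold change of -0.65 for HF versus NT (adjusted p = 0.0201, and 0.0769 without NT 5, also lost without HF 4) and -0.71 for RT versus NT (adjusted p = 0.00595). For RT versus NT, Parp14 had -0.23 (adjusted p = 0.00365), and Oas1a had -1.23 (adjusted p = 0.0221), a call lost without NT 5 (-0.70, adjusted p = 0.11), RT 1 or RT 3. Usp18, which removes the ubiquitin-like protein ISG15, had -0.57 for HF versus NT (adjusted p = 0.0218), a call lost without HF 3 or HF 4 (with adjusted p up to 0.0652). Without NT 5 it was -0.37 (adjusted p = 0.0475).

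**Figure D4:**
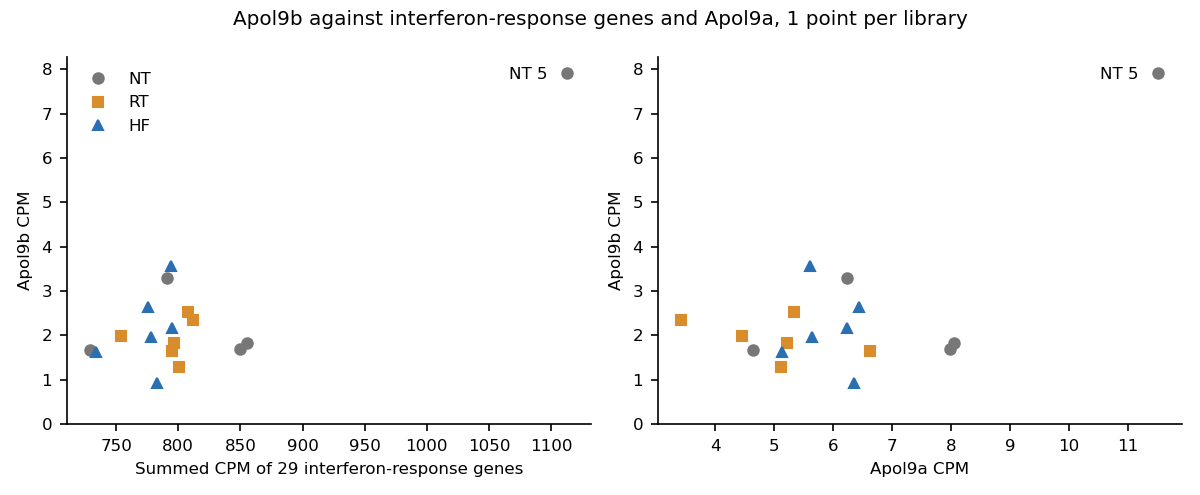
Level of Apol9b (CPM, y axis) against the summed level of 29 tested interferon-response genes (CPM, x axis) in each of the 17 libraries on the left, and against the level of Apol9a (CPM) on the right, coloured by surface, with x axes that do not start at 0. NT 5 lies apart, at 7.93 CPM of Apol9b, 1113 CPM of the interferon genes and 11.5 CPM of Apol9a, and the other 16 libraries lie between 729 and 856 CPM of the interferon genes.

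The labels number replicates 1 to 5 in all groups and 6 in RT and HF, without saying what a number stands for. In a fit with group and number, Arhgap24 was the 1 of 7 tested genes whose level differed by number (adjusted p = 0.0376 by edgeR), where 1.22% of all tested genes did. Relative to its group mean its log2 level averaged 0.11 and 0.10 in libraries numbered 2 and 3, and -0.12 and -0.13 in those numbered 5 and 6. The number took 67.4% of its within-group variance, beside a median of 40.1% over all tested genes. The call was lost without the libraries numbered 6 (adjusted p = 0.105) and in 9 of 17 omissions of 1 library. These were NT 3 (0.0741), NT 4 (0.0675), NT 5 (0.326), RT 4 (0.0541), RT 5 (0.0817), RT 6 (0.0723), HF 4 (0.0601), HF 5 (0.087) and HF 6 (0.126), with the adjusted p in brackets.

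Inf2 deviated the other way, by -0.10 in libraries numbered 2 and by 0.06 and 0.08 in those numbered 5 and 6, and did not pass (adjusted p = 0.187). For the other 5 tested genes the adjusted p for the number ran from 0.489 (Dnm1) to 0.937 (Arhgdia).

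Of 21 pairs among the 7 tested genes, 2 were related across the 17 libraries after adjustment over the 21 pairs. Inf2 and Arhgap24 had a Pearson r of -0.649 (permutation p = 0.00262, adjusted p = 0.0275) and a Spearman correlation of -0.721 (permutation p = 0.00136, adjusted p = 0.0143). Without NT 2 and HF 6, the libraries farthest from the median of Inf2, r was -0.685. Within groups r was -0.892 over the 17 deviations from the group means. It was -0.969 in the 5 NT libraries, -0.913 in the 6 RT libraries and -0.79 in the 6 HF libraries. Values over 5 or 6 libraries can be this large without a relation over all 17. Synpo and Apol9b had -0.98 in RT, beside 0.0908 over the 17 libraries.

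Myo1e and Arhgap24 had an r of -0.738 (permutation p = 0.00072, adjusted p = 0.0151) and a Spearman correlation of -0.755 (permutation p = 0.00082, adjusted p = 0.0143). Without RT 2 and RT 4 r was -0.715, and within groups -0.586. Libraries high in Arhgap24 were lower in Inf2 and in Myo1e. The values share library, depth and base composition. GC content of the longest transcript was 60.4% for Inf2, 42.3% for Arhgap24 and 51.1% for Myo1e, beside a median of 49.3% over tested genes. Over the 17 libraries, the deviation of Inf2 had a Pearson r of 0.459 with the library's slope of log2 level on GC content and 0.422 with total counts, and that of Arhgap24 had -0.309 and -0.365. That of Myo1e had -0.00247 and 0.2999. These are descriptions. The part of composition and depth in the relation was not tested.

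**Figure D5:**
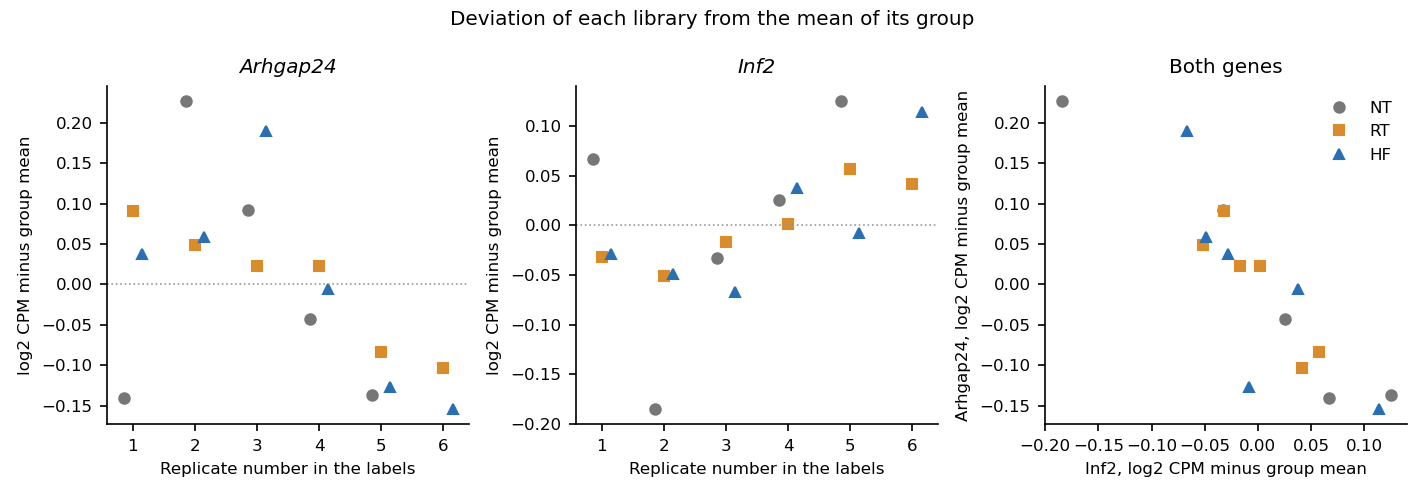
Log2 CPM of Arhgap24 (left) and Inf2 (middle) minus the mean of the group, by replicate number in the labels, and Arhgap24 against Inf2 (right), with 1 point per library and the surface as symbol and colour. All 5 libraries numbered 5 or 6 lie below their group mean in Arhgap24, and the right panel falls from left to right in all 3 groups.

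The genes whose levels were most like each member over the 17 libraries were ranked by Pearson r of log2 CPM among 12175 genes, as a description. They were Gpc4 (0.941) and Mfap3l (0.931) for Arhgap24, Vegfd (0.91) and Pcolce (0.896) for Myo1e, and Sept9 (0.899) and Ldhb (0.873) for Inf2. For Synpo they were Fbxo7 (0.811) and Arhgef28 (0.807), for Arhgdia Rpl9 (0.816) and Mrpl12 (0.813), and for Dnm1 Col20a1 (0.809) and Zfp317 (0.804). For Apol9b they were Rfxap (0.898) and Ier5l (0.81), a likeness in which NT 5 is 1 of the 17 points.

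The 46 other tested genes of podocyte disease give the setting of these 9. In HF versus NT 2 rose (Actn4 and Lama5, a laminin chain of the glomerular basement membrane) and 1 fell (Wt1, a podocyte transcription factor), where 1.5% of all tested genes rose and 0.829% fell. In RT versus NT 2 rose (Lama5 and Col4a5, a collagen IV chain) and 3 fell (Wt1, Lamb2 and Tns2), where 2.53% and 1.44% of all tested genes did. In HF versus RT none passed, where 0.211% of all tested genes did. At an unadjusted p under 0.05 the list had 16 genes in HF versus NT, 7 in HF versus RT and 16 in RT versus NT, beside 14.2%, 8% and 17.1% of all tested genes. Wt1 was at 115 ± 3.02 CPM in NT (SD, n = 5), 96.9 ± 2.96 in RT and 103 ± 5.22 in HF (SD, n = 6 each), with an adjusted p of 0.0113 for HF versus NT and 6.16e-05 for RT versus NT. Lamb2, another laminin chain, had a log2 fold change of -0.17 for RT versus NT (adjusted p = 0.00182) and Tns2, the adhesion adaptor tensin 2, -0.16 (adjusted p = 0.00595). The call of Lama5 ended without NT 3 or NT 5 in both comparisons (with adjusted p up to 0.0722 and 0.0698), and that of Col4a5 without NT 1, NT 3, NT 5, RT 1 or RT 4 (with adjusted p up to 0.0764). Without NT 5 the list had 0 genes up and 3 down in RT versus NT, where 447 of all tested genes were then up and 359 down.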

How the data were processed

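Poly-A RNA of 17 libraries of E11 cells was sequenced in pairs with a kit that does not mark strand, per the labels' protocols. The authors deposited raw read counts for each gene in each library, not normalized. The submitters' processing notes name CASAVA, HISAT2 2.0.5, featureCounts 1.5.0-p3 and the build GRCm39. The annotation release and any filter are not given in the sources used here. Because strand was not marked, overlapping genes could share reads, but no exon of the 9 genes overlaps another gene in GENCODE M21.

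Symbols, exon lengths and transcripts came from GENCODE M21, which is on GRCm38, so gene positions are not given. A symbol was found for 52073 identifiers, and the rest held 0.580% of all counts. The replicates were compared as labelled, and all 17 columns were used. Total counts of 14.9 to 24.1 M limit what can be said of genes with a few counts, and intervals from counts cover counting error only.

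Genes were filtered with filterByExpr by group, scaled by TMM and fitted in 1 edgeR 4.0.16 model (R 4.3.3) with a mean for each group. The quasi-likelihood F test was robust and two-sided, with Benjamini-Hochberg adjustment over 15196 genes and a threshold of 0.05. The test was tried on simulated data first. The common biological coefficient of variation was 0.0603. CPM use the scaled totals, and log2 CPM a prior count of 2. Permutation p-values of the 21 pairs used 100000 resamples and are two-sided.

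The alternatives were other scalings (RLE and upper quartile), no filter beyond 1 count, DESeq2 1.42.0, voom of limma 3.58.1, only the 2 groups compared, replicate number as a block, no libraries numbered 6, and leaving out each library. Leaving NT 5 out of the list counts was chosen after seeing the data. The 9 genes are always named. Of each other list at most 4 genes past the threshold in a comparison are named, those with the smallest p, besides leading relatives, markers and, for each tested gene of the 9, the 2 genes most like it. Sh3gl1, Apol9a and the rest of those named were taken by this rule, while Col4a5 and the cell type markers named by their level were picked with their values known. The 9 genes and all lists were chosen with earlier results of these data known. Promoter windows came from RefSeq (GRCm38.p6). Some genes and lists are not reported here.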

Additional observations from a re-analysis of the deposited data

Results flagged for a closer look

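Apol9b in the NT library of replicate 5, at 7.93 CPM, lay far from the other 4 NT libraries. Its gap to the nearest of them, at 3.29 CPM, was 0.74 of the whole NT range, above Dixon's 95% critical value of 0.71 for 5 samples. It was the 1 such value among 21 gene and group combinations tested, where chance flags about 1 in 20. Its values with and without this library are given with the gene.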

How the results depend on the processing

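Over 8 other settings and 17 omissions of 1 library, the count of the 9 genes past the threshold for HF versus RT was 0 throughout. For HF versus NT it was 0, and 0 to 1 over the omissions (1, Synpo, without NT 1). For RT versus NT it was 1 (Arhgap24) with no filter beyond 1 count and with DESeq2, and 0 to 1 over the omissions (1 without NT 2). Arhgap24 then had a log2 fold change of 0.20 (adjusted p = 0.0198), 0.20 (adjusted p = 0.0314) and 0.26 (adjusted p = 0.0174). The counts over all tested genes moved more. For HF versus NT 354 became 597 with no filter, 556 with DESeq2 and 200 with only the 2 groups, and 202 (without NT 3) to 604 (without NT 5) over the omissions. For HF versus RT 32 became 148, 89 and 113 under these settings, 15 without the libraries numbered 6, and 14 (without RT 1) to 89 (without HF 3). For RT versus NT 603 became 822, 803 and 510 under the first 3 settings, and 365 (without NT 3) to 806 (without NT 5). Of genes differing by replicate number, 185 became 704 with no filter and 116 to 277 over the omissions, and the 1 of the 9 genes became 2 with no filter, 0 without the libraries numbered 6 and 0 to 1 over the omissions. The cause of these moves was not tested.

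With the replicate number as a block, the counts were 637, 125 and 995 in the order HF versus NT, HF versus RT, RT versus NT, and Arhgap24 passed in the last (0.23, adjusted p = 0.00053), 1 of the 9 genes. Same-numbered libraries correlated by 0.00367 to 0.219 over the 1000 most variable genes, all above 0, and the own number correlated best in 11 of 32 cases. Not every pair exceeded 0.1, so the numbers were not taken to pair the libraries, and what a number stands for is not known. The block changed no other call of the 9 genes.

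Log2 fold changes near 0 turned sign. Arhgdia in RT versus NT was -0.006474 with upper quartile scaling, -0.0002064 with only the 2 groups, -0.001678 with the replicate block, -0.003688 without the libraries numbered 6, and -0.00961 to 0.01568 over the omissions. Inf2 in RT versus NT ran from -0.02943 (without NT 2) to 0.04613, and Dnm1 from -0.09362 to 0.01284 (without NT 1). Apol9b ran from -0.82 to 0.0156 (without NT 5) in HF versus NT and from -0.05216 (without HF 1) to 0.31 in HF versus RT. Synpo in HF versus NT ran from -0.15 (without NT 1) to -0.07. RLE and upper quartile scaling moved the median log2 fold change of all genes by -0.006651 at most (RT versus NT, upper quartile). Trpc6 and Plce1 could not be tested at this depth.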
